A study of Mus musculus with 6 samples.

Results

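The expression of 10 genes that defend cells against oxidants and metals was compared in hearts of 3 groups of mice: the metallothioneins Mt1 and Mt2, the NRF2-dependent genes Hmox1, Nqo1, Gclc, Gclm, Txnrd1 and Srxn1, and the enzymes Cat and Sod2. They were taken by name, as all probe sets whose only annotated symbol is one of the 10 genes, which gave 22 of 45037 probe sets and 10 of 18193 genes. Of the 22 probe sets, 21 were bright enough to be tested, among 27022 tested in all, and the one left out is a second probe set of Mt1.

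Total RNA of mouse hearts was measured on Affymetrix expression arrays, with 3 groups of 2 arrays each. The first group was apoE-deficient mice on the B6 background that received rosiglitazone at 30 mg/kg per day for 2 months from 6 months of age, and whose hearts the labels call failing. The second was untreated apoE-deficient mice on the B6 background, and the third was untreated B6 mice that carry no transgene. All mice were 8 months old, ate a chow with 7% fat and 0.15% cholesterol, and had their heart function measured by ultrasound before the hearts were taken. Apolipoprotein E (apoE) lets lipoprotein particles be taken up from the blood, and mice without it have high plasma cholesterol. Rosiglitazone, a drug against diabetes, is a ligand of PPAR gamma, the nuclear receptor that drives fat cell development. No group pairs the drug with B6 mice, and drug and failing state occur in the same mice, so they cannot be told apart. Whether the 2 arrays of a group are separate animals is not stated, so p-values reflect the spread between arrays, and that spread may be technical only.

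NRF2 is a transcription factor that the adaptor KEAP1 normally marks for degradation. When oxidants or electrophiles modify KEAP1, NRF2 accumulates, pairs with a small MAF protein and binds the antioxidant response element (ARE) of genes for glutathione synthesis, thioredoxin recycling, quinone reduction and heme breakdown. Metallothioneins are small cysteine-rich proteins that bind zinc and copper and react with oxidants. Their genes are induced by the zinc sensor MTF-1, which binds the metal response element (MRE), and by glucocorticoids. Catalase and the mitochondrial superoxide dismutase Sod2 act on the oxidants themselves, and the mitochondria that supply the heart with ATP are a main source of superoxide.

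The promoter windows of the 2 metallothioneins and of Srxn1 are printed because the higher levels of these genes in untreated apoE-deficient than in B6 hearts passed the test also when any 1 array was left out (for Srxn1 on 1 of its probe sets). They are from RefSeq for assembly GRCm38.p6 and run from 250 bases before the annotated transcript start to 50 bases after it, 300 bases in all, on the strand of the gene and printed 5′ to 3′. Capitals mark matches to 3 motifs on either strand: the MRE core, searched as TGCACNC or TGCGCNC, the ARE core, searched as TGACNNNGC, and the sequence TGAGTCAGC, an AP-1 site followed by GC, which the ARE core as searched does not cover. The window of Mt1 is chr8:94178839-94179138 (plus strand), that of Mt2 chr8:94172368-94172667 (plus strand) and that of Srxn1 chr2:152105274-152105573 (plus strand).
Mt1: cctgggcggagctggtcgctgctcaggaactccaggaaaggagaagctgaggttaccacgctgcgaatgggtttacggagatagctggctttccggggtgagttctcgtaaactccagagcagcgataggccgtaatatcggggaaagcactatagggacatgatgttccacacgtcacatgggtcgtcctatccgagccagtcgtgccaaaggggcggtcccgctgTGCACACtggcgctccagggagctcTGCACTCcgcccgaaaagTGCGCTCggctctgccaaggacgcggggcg
Mt2: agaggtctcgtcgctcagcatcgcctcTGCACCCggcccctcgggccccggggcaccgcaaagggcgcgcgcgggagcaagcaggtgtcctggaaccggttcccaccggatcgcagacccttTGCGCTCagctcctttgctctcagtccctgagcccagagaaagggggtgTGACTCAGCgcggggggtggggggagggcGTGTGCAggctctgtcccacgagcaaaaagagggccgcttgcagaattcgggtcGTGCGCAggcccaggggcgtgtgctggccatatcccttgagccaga
Srxn1: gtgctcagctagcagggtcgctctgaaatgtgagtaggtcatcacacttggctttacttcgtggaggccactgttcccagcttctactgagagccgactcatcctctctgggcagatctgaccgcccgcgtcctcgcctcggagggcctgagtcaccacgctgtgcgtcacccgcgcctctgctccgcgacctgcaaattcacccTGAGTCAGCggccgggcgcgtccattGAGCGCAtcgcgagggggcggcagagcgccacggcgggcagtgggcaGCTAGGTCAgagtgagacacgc
The Mt1 window held 3 MRE matches and no ARE match. The Mt2 window held 4 MRE matches and 1 ARE core. The Srxn1 window held 1 MRE match, 1 ARE core and 1 TGAGTCAGC. Of 32851 RefSeq windows of the same length, 25.7% held at least 1 MRE match, 1.97% at least 3 and 0.517% at least 4, while 12.4% held an ARE core and 0.41% the sequence TGAGTCAGC. RefSeq windows were matched for 8 of the 10 genes, 10 windows in all. The Gclm window held 3 MRE matches and 1 ARE core, 1 of the Txnrd1 windows held 1 ARE core, and the windows of Nqo1, Cat and Sod2 held none of the 3 motifs. A match is only a run of letters, and binding was not measured. Sequence outside the windows was not searched, so a window without a match says nothing about elements farther from the annotated start.

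Values are log2 of the signal after quantile normalization, with 11.1 (the pseudocount) added to each signal first, which understates the change of dim genes. Differences are given as log2 differences ± SE from limma, fitted over all 6 arrays (n = 2 arrays per group), and a probe set passed where its Benjamini-Hochberg adjusted p over the 27022 probe sets was under 0.05. A gene with several probe sets is represented by its brightest one, called its main probe set. The deposited signals were not on a common scale, with 2%-trimmed means of 341 and 263 in treated, 126 and 130 in untreated apoE-deficient and 175 and 149 in B6 hearts. Brightness and group cannot be told apart, so 3 other ways of scaling the arrays were run beside the quantile normalization. Without limma's intensity trend, which sets the expected spread of a probe set by its brightness, 1 of the calls described here for the 10 genes remained, that of the main probe set of Cat in treated against untreated apoE-deficient hearts. Without the brightness filter, calls that did not pass were those of Hmox1 and Gclc in treated against B6 hearts, of Gclc and Sod2 in untreated apoE-deficient against B6 hearts, and of the second Srxn1 probe set in both comparisons with treated hearts.

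Apoe checked the labels: its log2 level was 6.20 and 6.25 in treated and 5.24 and 6.29 in untreated apoE-deficient hearts, against 11.91 and 11.86 in B6 hearts. Where its probes lie relative to the disrupted part of the gene was not determined. Of 12 cardiomyocyte markers, all were above the brightness filter, with summed normalized signals of 172482 and 179724 in treated, 189609 and 190729 in untreated apoE-deficient and 191771 and 193053 in B6 hearts. Of these 12 markers, 2 were higher and 6 lower in treated than in untreated apoE-deficient hearts. Against B6 hearts, 1 was higher and 6 lower in treated hearts, and 1 was higher and none lower in untreated apoE-deficient hearts. Markers of other cell types differed between groups as well. The sum over 10 white adipocyte markers was 48165 and 47720 in treated hearts, 28696 and 29030 in untreated apoE-deficient hearts and 31287 and 30242 in B6 hearts. That over 10 brown adipocyte markers was 41183 and 40325 in treated, 31883 and 31574 in untreated apoE-deficient and 31187 and 30498 in B6 hearts. Of these 10 markers, 5 were higher and 2 lower in treated than in untreated apoE-deficient hearts. Against B6 hearts, 5 were higher and 3 lower in treated hearts, and none passed in untreated apoE-deficient hearts. A sum of linear signals is led by its brightest markers. The 9 lung and airway markers summed to 15793 and 16694 in treated hearts, against 177 and 219 in untreated apoE-deficient hearts and 162 and 180 in B6 hearts. Of these 9, 2 were below the brightness filter, and 5 of the 7 tested were higher in treated hearts against each other group. Macrophage markers summed to 13866 and 13875 in treated hearts, 13831 and 14036 in untreated apoE-deficient hearts and 10310 and 10504 in B6 hearts, and red blood cell markers to 179 and 109, 374 and 410, and 851 and 837 in the same groups. In whole-heart RNA, fewer cells of a type and less RNA per cell cannot be told apart.

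In treated against untreated apoE-deficient hearts, 6 of the 21 tested probe sets passed, where 19.8% of all tested probe sets passed. By main probe set, 4 of the 10 genes passed, against 23.7% of 13236 genes: Hmox1 and Cat were higher (11.4% of all genes) and Mt1 and Mt2 lower (12.3% of all genes). Comparing untreated apoE-deficient with B6 hearts, 6 of the 21 probe sets passed, where 7.06% of all passed. By main probe set, 5 of the 10 genes passed, against 8.51% of all genes: Mt1, Mt2 and Gclc were higher (3.85% of all genes) and Cat and Sod2 lower (4.66% of all genes). For treated against B6 hearts, 8 of the 21 probe sets passed, where 15.0% of all passed. These were, by main probe set, 6 of 10 genes against 18.7% of all genes: Mt1, Mt2, Hmox1, Gclc and Cat were higher (8.78% of all genes) and Sod2 was lower (9.87% of all genes).

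With 2 arrays per group, arrays that do not overlap between groups are common. Of the 21 probe sets, 4 were higher without overlap and 8 lower in treated than in untreated apoE-deficient hearts, where 28.6% and 31.4% of all tested probe sets were. In untreated apoE-deficient hearts 8 were higher than in B6 hearts and 4 lower, where 24.3% and 25.9% of all were, and in treated hearts 11 were higher than in B6 hearts and 4 lower, where 26.4% and 31.1% of all were. The median log2 difference of the 21 probe sets was -0.05, -0.02 and 0.20 in the 3 comparisons, against -0.02, -0.01 and -0.02 over all tested probe sets. The comparisons share arrays with each other, so their counts are not independent.

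**Figure D1:**
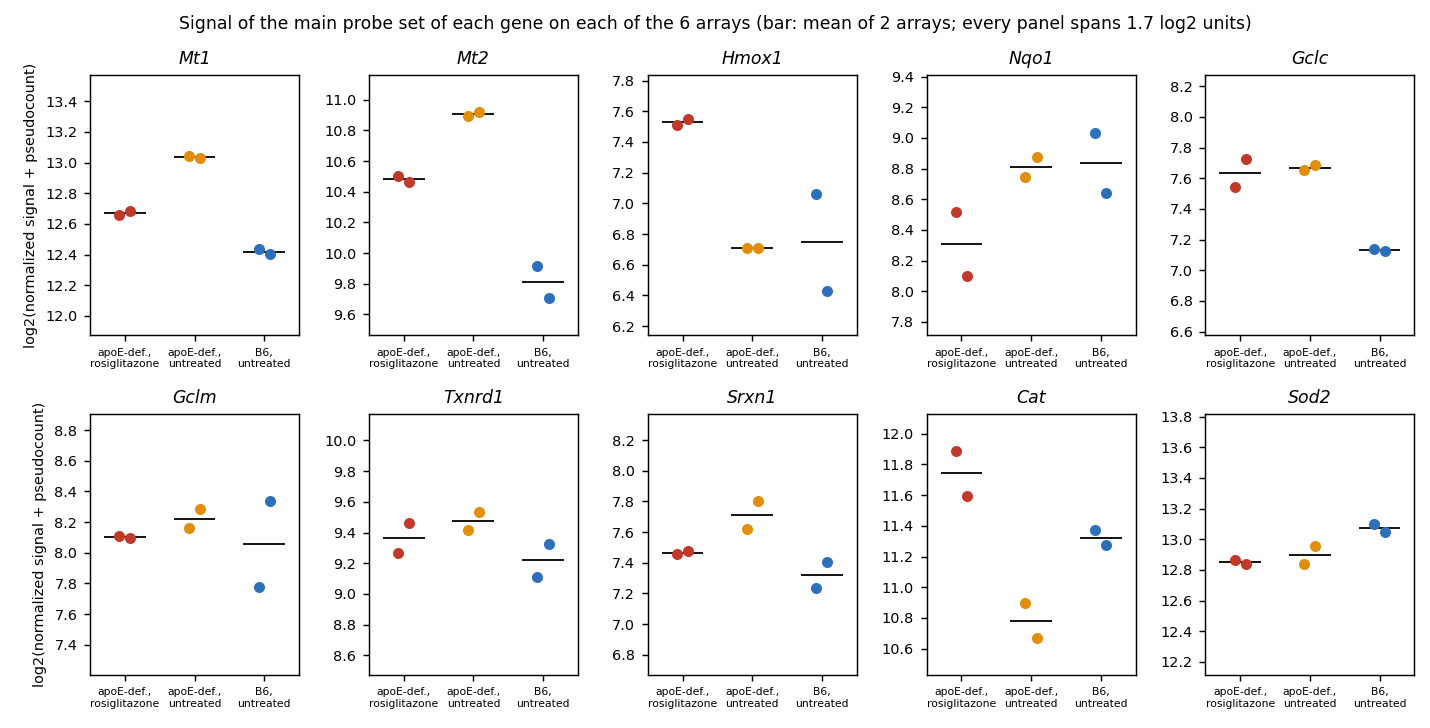
Log2 normalized signal (vertical axis) of the main probe set of each of the 10 genes on every array, 1 panel per gene, with treated apoE-deficient arrays at the left, untreated apoE-deficient arrays in the middle and B6 arrays at the right. Points are the 2 arrays of a group and the bar is their mean. All panels span the same width in log2 units but start at different levels. Mt1 and Mt2 were highest in untreated apoE-deficient hearts, Hmox1 and Cat in treated hearts, and the groups of Gclm and Txnrd1 lay close together.

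Under quantile normalization, the metallothioneins had their highest level in untreated apoE-deficient hearts, a lower one in treated hearts and the lowest in B6 hearts. Mt1, on its main probe set, had log2 levels of 12.66 and 12.68 in treated, 13.05 and 13.03 in untreated apoE-deficient and 12.43 and 12.40 in B6 hearts. The arrays of the 3 groups did not overlap, and those of a group lay within 0.03 of each other. Mt1 was lower in treated than in untreated apoE-deficient hearts by a log2 difference of -0.37 ± 0.03 (adjusted p = 0.000129, 0.775 times the level). In untreated apoE-deficient hearts it was higher than in B6 hearts, by 0.62 ± 0.03 (adjusted p = 2.72e-05, 1.54-fold), and in treated hearts higher than in B6 hearts by 0.25 ± 0.03 (adjusted p = 0.00121). The last difference rested on the scaling: it was -0.00 with trimmed-mean scaling and with array medians made equal, so that treated and B6 hearts cannot be ordered in Mt1, while the other 2 differences passed with each of the 3 other scalings.

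Mt2, which lies beside Mt1 on chromosome 8, had log2 levels of 10.50 and 10.46 in treated, 10.89 and 10.92 in untreated apoE-deficient and 9.91 and 9.71 in B6 hearts. The order of the groups was that of Mt1, again without overlap. Its difference was -0.42 ± 0.07 in treated against untreated apoE-deficient hearts (adjusted p = 0.00346, 0.745 times the level). Set against B6 hearts, untreated apoE-deficient hearts differed by 1.10 ± 0.07 (adjusted p = 8.87e-05, 2.14-fold), and in treated against B6 hearts 0.67 ± 0.07 (adjusted p = 0.000374, 1.60-fold). All 3 calls of Mt2 stood with each array left out in turn and with each of the 3 other scalings. Both metallothioneins thus lay between the levels of untreated apoE-deficient and B6 hearts in treated hearts under quantile normalization. The macrophage marker sum was higher in untreated apoE-deficient than in B6 hearts, with 6 of 10 tested markers higher and 1 lower. It was nearly the same in treated and untreated apoE-deficient hearts, where 2 markers were higher and 2 lower, and its part in the metallothionein differences was not tested.

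The second probe set of Mt1 was below the brightness filter and went the other way. Its log2 levels were 4.46 and 5.00 in treated and 3.89 and 4.41 in untreated apoE-deficient hearts, against 6.10 and 5.44 in B6 hearts, and it was not tested. When the probe sets of a gene were averaged, which gives this dim probe set the weight of the main one, the Mt1 differences became 0.11, -0.50 and -0.40 in the 3 comparisons and none passed. The main probe set of Mt1 is named with the suffix that Affymetrix gives to probes matching more than 1 transcript, and how far its probes also bind Mt2 RNA was not determined.

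**Figure D2:**
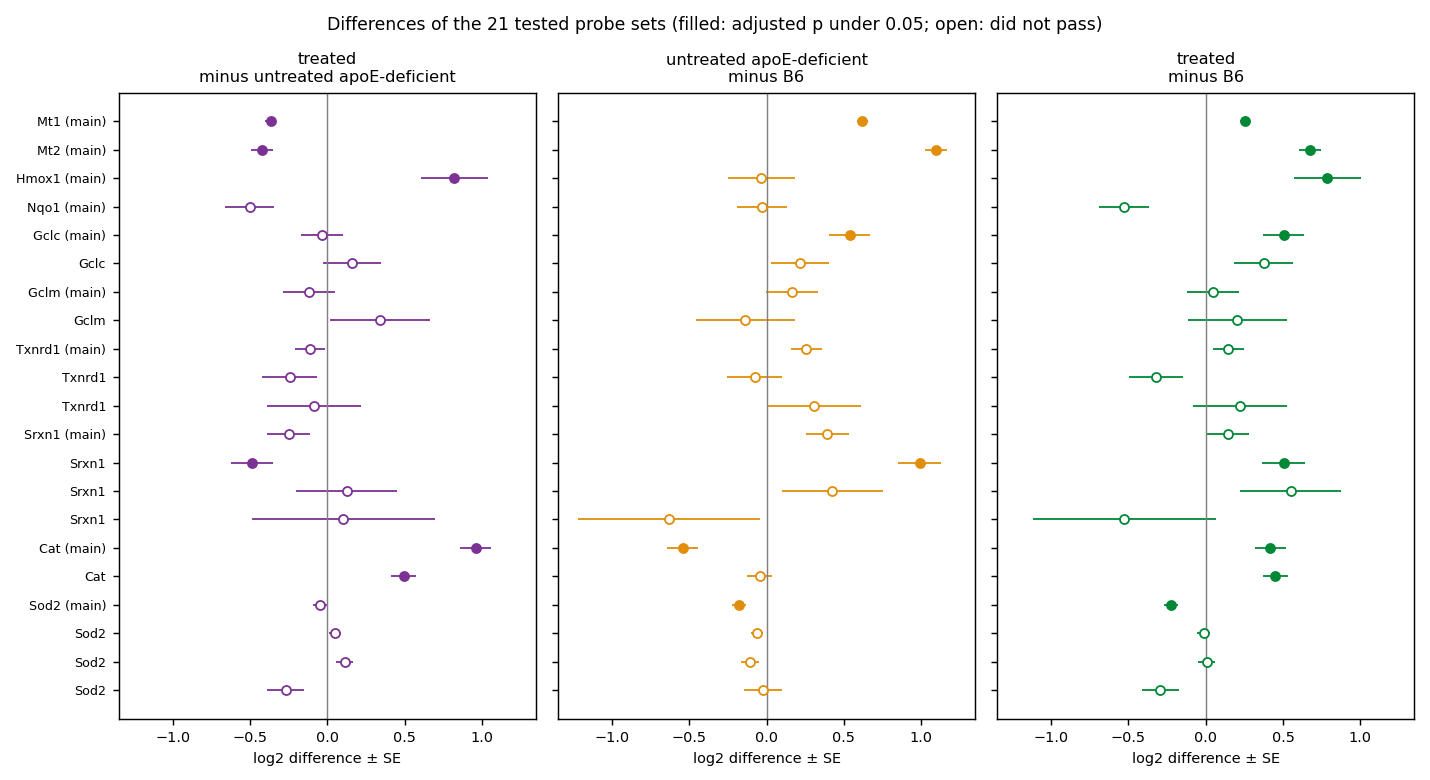
Log2 differences (horizontal axis) of all tested probe sets of the 10 genes in the 3 comparisons, with bars of 1 SE from limma. Filled points passed at an adjusted p under 0.05 and open points did not. The Mt1 and Mt2 points lie left of 0 in treated minus untreated apoE-deficient hearts and right of 0 in the other 2 comparisons. No probe set of Nqo1, Gclm or Txnrd1 passed.

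Hmox1, the inducible heme oxygenase that breaks heme into biliverdin, iron and carbon monoxide, was higher in treated hearts than in either other group. Its log2 levels were 7.51 and 7.55 in treated, 6.71 and 6.71 in untreated apoE-deficient and 7.06 and 6.43 in B6 hearts. The treated arrays were above all 4 others, and the 2 B6 arrays lay on both sides of the untreated apoE-deficient ones. The difference was 0.82 ± 0.22 against untreated apoE-deficient hearts (adjusted p = 0.0274, 1.77-fold) and 0.79 ± 0.22 against B6 hearts (adjusted p = 0.0400, 1.72-fold). Untreated apoE-deficient and B6 hearts differed by -0.04 ± 0.22 (adjusted p = 0.944). With any 1 of the treated or untreated apoE-deficient arrays left out, neither difference of the treated hearts passed, with values of 0.80 to 0.84 against untreated apoE-deficient hearts (adjusted p = 0.0789 to 0.133). Without B6 replicate 2 the difference from B6 was 0.47 and did not pass (adjusted p = 0.197), and without B6 replicate 1 it was 1.10. The adipocyte and the lung and airway marker sums were also higher on the treated arrays, and their part in the Hmox1 difference was not tested.

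Nqo1, a quinone reductase and a standard read-out of NRF2, was lowest in treated hearts, and no comparison passed. Its log2 levels were 8.51 and 8.10 in treated, 8.75 and 8.87 in untreated apoE-deficient and 9.03 and 8.64 in B6 hearts. The treated arrays lay below all others. The difference was -0.50 ± 0.16 against untreated apoE-deficient hearts (adjusted p = 0.0582) and -0.53 ± 0.16 against B6 hearts (adjusted p = 0.0585). Untreated apoE-deficient and B6 hearts differed by -0.03 ± 0.16 (adjusted p = 0.941). On which side of the threshold Nqo1 fell depended on the arrays used. Without treated replicate 1 the Nqo1 differences of treated hearts were -0.71 and -0.74 and passed. Without treated replicate 2 they were -0.30 and -0.32 and did not pass. It passed as well against B6 hearts without B6 replicate 2 (-0.72, adjusted p = 0.0455) and against untreated apoE-deficient hearts without either B6 array (-0.50, adjusted p = 0.0473 and 0.0460).

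The 2 subunits of glutamate-cysteine ligase, the first and limiting enzyme of glutathione synthesis, differed in their results. Gclc, the catalytic subunit, had log2 levels of 7.55 and 7.73 in treated and 7.65 and 7.69 in untreated apoE-deficient hearts, against 7.14 and 7.12 in B6 hearts. All 4 apoE-deficient arrays were above both B6 arrays, while treated and untreated apoE-deficient hearts overlapped. The difference was -0.03 ± 0.13 between treated and untreated apoE-deficient hearts (adjusted p = 0.898). It was 0.54 ± 0.13 in untreated apoE-deficient against B6 hearts (adjusted p = 0.0477, 1.45-fold) and 0.50 ± 0.13 in treated against B6 hearts (adjusted p = 0.0356, 1.42-fold). Both calls lay close to the threshold. The call against B6 was lost in untreated apoE-deficient hearts with any of the 6 arrays left out (0.52 to 0.55, adjusted p = 0.0766 to 0.157) and with trimmed-mean scaling (0.47) or equal array medians (0.40), and in treated hearts without any 1 of the treated or B6 arrays (0.41 to 0.60, adjusted p = 0.0954 to 0.250).

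The other probe set of Gclc, dimmer than the main one, differed by 0.16 ± 0.19, 0.21 ± 0.19 and 0.37 ± 0.19 in treated against untreated apoE-deficient, untreated apoE-deficient against B6 and treated against B6 hearts, and none passed. Gclm, the modifier subunit that raises the activity of the catalytic one, had log2 levels of 8.11 and 8.10 in treated, 8.16 and 8.29 in untreated apoE-deficient and 7.78 and 8.34 in B6 hearts. The B6 arrays spanned the other 4. Its differences were -0.12 ± 0.17, 0.17 ± 0.17 and 0.05 ± 0.17 in the same comparisons (adjusted p = 0.677, 0.610 and 0.906). The second Gclm probe set, at 0.34 ± 0.32, -0.14 ± 0.32 and 0.20 ± 0.32, did not pass either.

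Txnrd1, the cytosolic reductase that recycles thioredoxin with NADPH, and Srxn1, the sulfiredoxin that reactivates over-oxidized peroxiredoxins, belong to the thioredoxin branch of NRF2 targets. Txnrd1 had log2 levels of 9.27 and 9.46 in treated, 9.42 and 9.54 in untreated apoE-deficient and 9.11 and 9.32 in B6 hearts. Untreated apoE-deficient arrays lay above B6 arrays without overlap, and treated arrays overlapped with both. Its differences of -0.11 ± 0.10, 0.26 ± 0.10 and 0.15 ± 0.10 did not pass (adjusted p = 0.488, 0.167 and 0.412), nor did those of its other 2 probe sets, which ran from -0.32 to 0.31. With hybridization control scaling, which put the median difference of all probe sets at up to 0.28, Txnrd1 passed in untreated apoE-deficient against B6 hearts (0.38) and in treated against B6 hearts (0.48).

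Srxn1 was read by 4 probe sets, of which 1 passed. On that probe set, the second brightest, the log2 levels were 7.30 and 7.35 in treated, 7.76 and 7.86 in untreated apoE-deficient and 6.83 and 6.81 in B6 hearts. The 3 groups stood apart in the order of Mt2, highest in untreated apoE-deficient hearts, then treated, then B6. The difference of untreated apoE-deficient from B6 hearts was 0.99 ± 0.14 (adjusted p = 0.00453, 1.99-fold), and it passed with each array left out. In treated against untreated apoE-deficient hearts it was -0.49 ± 0.14 (adjusted p = 0.0374), and in treated against B6 hearts 0.50 ± 0.14 (adjusted p = 0.0399). Neither of these calls stood without any 1 of the arrays compared (-0.44 to -0.54, adjusted p = 0.0638 to 0.203, and 0.48 to 0.53, adjusted p = 0.106 to 0.204), and the first was lost with each of the 3 other scalings.

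The main probe set of Srxn1 did not pass in any comparison under quantile normalization, and passed in treated against B6 hearts with hybridization control scaling (0.49). Its log2 levels were 7.46 and 7.47 in treated, 7.62 and 7.81 in untreated apoE-deficient and 7.24 and 7.41 in B6 hearts, which is the same order of group means with smaller gaps. The differences were -0.25 ± 0.14, 0.39 ± 0.14 and 0.14 ± 0.14 (adjusted p = 0.257, 0.136 and 0.596). The 2 dimmest probe sets did not pass in any comparison and did not share the order of the 2 brighter ones. One differed by 0.13, 0.43 and 0.55 (SE 0.33), with its highest mean in treated hearts, and the other by 0.10, -0.63 and -0.53 (SE 0.59), with its highest mean in B6 hearts.

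Cat encodes catalase, the peroxisomal enzyme that splits hydrogen peroxide into water and oxygen, and its level was highest in treated hearts on both of its probe sets. On the main probe set the log2 levels were 11.89 and 11.59 in treated, 10.89 and 10.67 in untreated apoE-deficient and 11.37 and 11.28 in B6 hearts. The groups did not overlap, with B6 hearts in the middle. The difference was 0.96 ± 0.10 in treated against untreated apoE-deficient hearts (adjusted p = 0.000253, 1.94-fold), and it passed with each array left out and with each scaling. It was 0.42 ± 0.10 in treated against B6 hearts (adjusted p = 0.0224) and -0.54 ± 0.10 in untreated apoE-deficient against B6 hearts (adjusted p = 0.0155, 0.687 times the level).

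Those last 2 calls were less firm. The difference of treated from B6 hearts did not pass without treated replicate 1 (0.27), B6 replicate 1 (0.46) or B6 replicate 2 (0.37), or with trimmed-mean scaling or equal array medians (0.31 in both). That of untreated apoE-deficient from B6 hearts did not pass without untreated apoE-deficient replicate 2 (-0.43), B6 replicate 1 (-0.50) or B6 replicate 2 (-0.59). The second Cat probe set had log2 levels of 11.67 and 11.44 in treated, 11.14 and 10.98 in untreated apoE-deficient and 11.14 and 11.07 in B6 hearts. Treated arrays were again above the 4 others, but untreated apoE-deficient and B6 arrays overlapped. It was higher in treated than in untreated apoE-deficient hearts by 0.49 ± 0.08 (adjusted p = 0.00287) and than in B6 hearts by 0.45 ± 0.08 (adjusted p = 0.00579, lost without B6 replicate 2 at 0.42), and untreated apoE-deficient and B6 hearts differed by -0.04 ± 0.08 (adjusted p = 0.804). The lower Cat level in untreated apoE-deficient than in B6 hearts was thus seen on 1 of 2 probe sets. White adipocyte marker sums had the same order of groups as the main Cat probe set, highest in treated and lowest in untreated apoE-deficient hearts, and 6 of 9 tested markers were higher in treated than in untreated apoE-deficient hearts and 4 lower in untreated apoE-deficient than in B6 hearts. Their part in the Cat differences was not tested.

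Sod2, the manganese enzyme that turns superoxide into hydrogen peroxide in the mitochondrial matrix, differed little between groups. Its main probe set had log2 levels of 12.86 and 12.84 in treated, 12.84 and 12.95 in untreated apoE-deficient and 13.10 and 13.05 in B6 hearts. Both B6 arrays were above the 4 apoE-deficient ones, which overlapped. The difference was -0.05 ± 0.04 in treated against untreated apoE-deficient hearts (adjusted p = 0.519), -0.18 ± 0.04 in untreated apoE-deficient against B6 hearts (adjusted p = 0.0434) and -0.22 ± 0.04 in treated against B6 hearts (adjusted p = 0.00859, 0.856 times the level). The other 3 probe sets of Sod2 did not pass in any comparison, with differences from -0.29 to 0.11.

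The Sod2 main probe set was brighter than 99.4% of all probe sets, and its values moved with the scaling. In treated against untreated apoE-deficient hearts it was lower and passed with the trimmed mean (-0.53), the hybridization controls (-0.35) and the array medians (-0.45) as the scale. Between untreated apoE-deficient and B6 hearts it did not pass with any of these, at -0.05, 0.09 and -0.12, nor without untreated apoE-deficient replicate 1 (-0.12), B6 replicate 1 (-0.15) or B6 replicate 2 (-0.20). The difference of treated from B6 hearts was -0.57, -0.26 and -0.57 with the 3 scalings and was lost without B6 replicate 1 (-0.20, adjusted p = 0.0723).

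**Figure D3:**
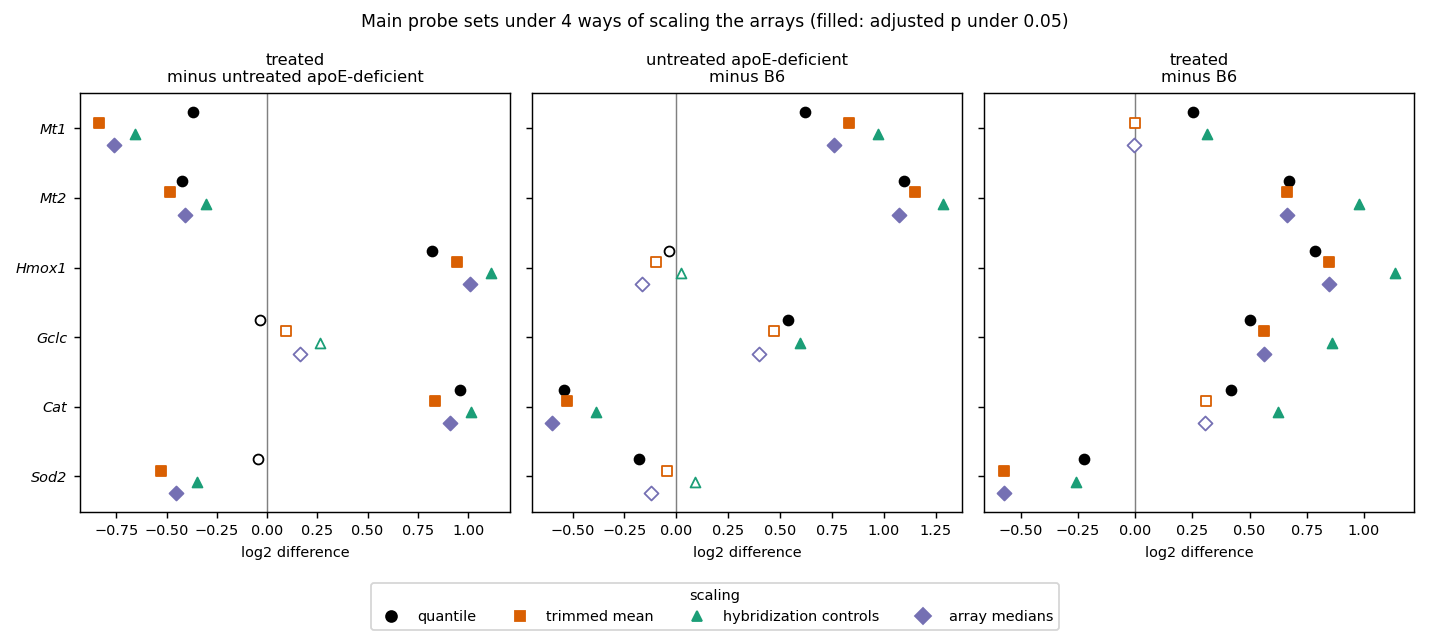
Log2 differences (horizontal axis) of the main probe sets of the 6 genes that passed in any comparison, under quantile normalization and 3 other ways of scaling the arrays, 1 panel per comparison. Filled symbols passed at an adjusted p under 0.05. Mt2 keeps its sign and its call in every panel, the Mt1 symbols of treated minus B6 lie at 0.25 and 0.31 with 2 of the scalings and close to 0 with the other 2, and those of Sod2 cross the threshold in 2 panels.

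The wider pathway was read from 9 lists of further genes, which were chosen with earlier results of these data known. Over all genes the median log2 differences were -0.03 in treated against untreated apoE-deficient, 0.00 in untreated apoE-deficient against B6 and -0.03 in treated against B6 hearts, and list medians below follow the same order. In the same order, 11.4%, 3.85% and 8.78% of 13236 genes were higher and 12.3%, 4.66% and 9.87% lower. Counts of the lists below are to be read beside these shares. Without the intensity trend, none of the genes named below passed in untreated apoE-deficient against B6 hearts. In that setting Mafk, Slc3a2, Txn2, Prdx4, Sod1, Fth1, Ephx1, Aox1, Me1, Nqo2, Slc39a10, Mt3 and Cyba did not pass in treated against untreated apoE-deficient hearts, nor Txnip, Sod1, Cybb, Mt3, Slc39a10 and Chac1 in treated against B6 hearts.

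Of 8 regulators of NRF2, 3 were lower and none higher in treated than in untreated apoE-deficient hearts, 2 were higher in untreated apoE-deficient than in B6 hearts, and none passed in treated against B6 hearts (medians -0.25, 0.17 and -0.04). NRF2 itself (Nfe2l2) and its inhibitor Keap1 did not pass in any comparison under quantile normalization. Nfe2l2 differed by -0.14 ± 0.05, 0.11 ± 0.05 and -0.03 ± 0.05 in treated against untreated apoE-deficient, untreated apoE-deficient against B6 and treated against B6 hearts (adjusted p = 0.0963, 0.253 and 0.788), and Keap1 by -0.22 ± 0.08, 0.00 ± 0.08 and -0.21 ± 0.08. Nfe2l2 passed as lower in the first comparison with trimmed-mean scaling (-0.18) and as higher in the other 2 with hybridization control scaling (0.27 and 0.26). Sqstm1, the autophagy receptor p62 that binds KEAP1 and is itself an NRF2 target, was lower in treated than in untreated apoE-deficient hearts by -0.52 ± 0.04 (adjusted p = 3.49e-05) and higher in untreated apoE-deficient than in B6 hearts by 0.46 ± 0.04 (adjusted p = 0.000314). Mafk, a small MAF partner of NRF2, differed by -0.45 ± 0.08 (adjusted p = 0.00598) and 0.62 ± 0.08 (adjusted p = 0.00405) in the same comparisons. With hybridization control scaling the first Mafk difference was -0.21 and did not pass. A second, dim probe set of Sqstm1 did not pass, nor did Sqstm1 with its probe sets averaged (-0.19 and 0.03).

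Among genes that supply NADPH and other NRF2 targets, more were higher than lower in treated hearts. Of 14 tested, 7 were higher and 4 lower in treated than in untreated apoE-deficient hearts, and 8 were higher and 1 lower in treated than in B6 hearts. In untreated apoE-deficient against B6 hearts 2 were higher and none lower (medians 0.39, -0.02 and 0.47). Tkt and Pgd, enzymes of the pentose phosphate pathway, were higher in treated than in untreated apoE-deficient hearts by 2.11 ± 0.17 (adjusted p = 6.27e-05) and 0.86 ± 0.07 (adjusted p = 9.37e-05). Other probe sets gave smaller values in this comparison, 1.38 for Tkt and 0.72, 0.30 and 0.26 for Pgd. The last of these did not pass (adjusted p = 0.104). The aldo-keto reductase Akr1b8 was higher by 0.86 ± 0.11 (adjusted p = 0.000758) and the epoxide hydrolase Ephx1 by 0.41 ± 0.07 (adjusted p = 0.00389). The NRF2 target Osgin1 was higher in untreated apoE-deficient than in B6 hearts, by 1.78 ± 0.23 (adjusted p = 0.00319). The 4 lower genes in treated against untreated apoE-deficient hearts, named after their values were seen, were Osgin1 (-0.95 ± 0.23, adjusted p = 0.0202), the quinone reductase Nqo2 (-0.36 ± 0.10, adjusted p = 0.0384), the aldehyde oxidase Aox1 (-0.34 ± 0.08, adjusted p = 0.0202) and the malic enzyme Me1 (-0.20 ± 0.05, adjusted p = 0.0275). None of these 4 calls held with hybridization control scaling, without either treated array or without replicate 1 of untreated apoE-deficient hearts (adjusted p between 0.0514 and 0.625). A second Me1 probe set passed as lower (-0.38), and the other 2 of Nqo2 did not pass (0.14 and 0.07). The pentose phosphate enzymes also serve fat synthesis, and the adipocyte marker sums given above were higher on the treated arrays. Their part in these differences was not tested.

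Among 19 glutathione peroxidases and transferases, 6 were higher and 7 lower in treated than in untreated apoE-deficient hearts. In untreated apoE-deficient against B6 hearts 2 were higher and none lower, and in treated against B6 hearts 6 were higher and 6 lower (medians -0.02, 0.04 and 0.05). Mgst1, a microsomal transferase, was higher in treated hearts by 1.09 ± 0.05 against untreated apoE-deficient hearts (adjusted p = 1.42e-06) and by 1.09 ± 0.05 against B6 hearts (adjusted p = 1.77e-06). Gpx3, the secreted glutathione peroxidase, was higher than in untreated apoE-deficient hearts by 0.56 ± 0.04, and Mgst3 was lower by -0.53 ± 0.03, though a second probe set of Mgst3 did not pass. Of 7 tested genes of glutathione synthesis and reduction other than Gclc and Gclm, 2 were lower and none higher in treated hearts against each other group, and none passed between untreated apoE-deficient and B6 hearts (medians 0.06, -0.02 and 0.05). Slc3a2, the heavy chain of the cystine transporter, was lower in treated than in untreated apoE-deficient hearts by -0.46 ± 0.08 (adjusted p = 0.00405). Slc7a11, its partner chain in that transporter, was below the brightness filter and was not tested. Mean log2 levels of Slc7a11 were 3.97 in treated, 4.65 in untreated apoE-deficient and 4.57 in B6 hearts. Chac1, which degrades glutathione, was lower in treated than in B6 hearts by -0.71 ± 0.13 (adjusted p = 0.00542). With hybridization control scaling neither Slc3a2 nor Chac1 passed, at -0.24 and -0.35.

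Of 14 genes of the thioredoxin and peroxiredoxin system, 2 were higher and 3 lower in treated than in untreated apoE-deficient hearts, 2 higher and 1 lower in untreated apoE-deficient than in B6 hearts, and 2 higher and 4 lower in treated than in B6 hearts (medians -0.03, 0.05 and -0.00). Txnip, which binds and inhibits thioredoxin and is induced by glucose, had its lowest level in untreated apoE-deficient hearts. It differed by 0.52 ± 0.04 in treated against untreated apoE-deficient hearts (adjusted p = 5.43e-05), by -1.02 ± 0.04 in untreated apoE-deficient against B6 hearts (adjusted p = 3.79e-06) and by -0.50 ± 0.04 in treated against B6 hearts (adjusted p = 8.23e-05). Its second probe set was lower against B6 hearts in both apoE-deficient groups (-0.62 in untreated and -0.76 in treated hearts) but differed by -0.14 between treated and untreated apoE-deficient hearts and did not pass there. The mitochondrial thioredoxin Txn2 was lower in treated than in untreated apoE-deficient hearts by -0.33 ± 0.05, and Prdx4, a peroxiredoxin of the endoplasmic reticulum, higher by 0.36 ± 0.06. The other 2 probe sets of Prdx4 differed by 0.62 and 0.22 and did not pass (adjusted p = 0.109 and 0.576). Sesn1 passed as lower on its main probe set (-0.71 ± 0.05) and as higher on another (0.69 ± 0.12), so it has no single direction here.

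Of the other superoxide dismutases, Sod3, the extracellular enzyme, was higher in treated than in untreated apoE-deficient hearts by 0.66 ± 0.08 (adjusted p = 0.000558) and than in B6 hearts by 0.78 ± 0.08 (adjusted p = 0.000282). Sod1, the cytosolic copper-zinc enzyme, was lower on its main probe set by -0.26 ± 0.03 and -0.32 ± 0.03 in the same comparisons (adjusted p = 0.000903 and 0.000344), but another Sod1 probe set was higher in treated than in B6 hearts (0.28 ± 0.08, adjusted p = 0.0451). Ccs, which loads copper into Sod1, did not pass, at -0.12 ± 0.10 and -0.09 ± 0.10. Between untreated apoE-deficient and B6 hearts none of the 3 passed, with values of -0.06 ± 0.03 for Sod1, 0.12 ± 0.08 for Sod3 and 0.02 ± 0.10 for Ccs (list medians -0.12, 0.02 and -0.09).

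Around Hmox1, 8 genes of heme and iron handling were tested, of which 3 were higher and 2 lower in treated than in untreated apoE-deficient hearts, 2 higher and 1 lower in untreated apoE-deficient than in B6 hearts, and 5 higher and 2 lower in treated than in B6 hearts (medians 0.12, -0.03 and 0.28). Tfrc, the transferrin receptor, was higher in treated than in untreated apoE-deficient hearts by 1.09 ± 0.07 (adjusted p = 1.62e-05) and lower in untreated apoE-deficient than in B6 hearts by -0.62 ± 0.07 (adjusted p = 0.00169). Of its other 2 probe sets, 1 passed in the first of these comparisons (1.22 and 0.39) and none in the second (-0.44 and -0.37, adjusted p = 0.193 and 0.615). Blvrb, a biliverdin reductase abundant in red blood cells, differed by -0.63 ± 0.08 (adjusted p = 0.000782) in treated against untreated apoE-deficient hearts. In untreated apoE-deficient against B6 hearts its difference was 0.99 ± 0.08 (adjusted p = 0.000312). Blvra, the other biliverdin reductase of the list, did not pass, at 0.22 ± 0.08, -0.07 ± 0.08 and 0.16 ± 0.08 in the order of the medians. The red blood cell marker sum was lower in treated than in untreated apoE-deficient hearts, and lower in both than in B6 hearts. It covers 5 measured markers, 2 of them below the brightness filter, and 2 of the 3 tested were lower in each comparison. Another probe set of Hbb-b2, 1 of the listed markers, did not pass (-0.60, -0.02 and -0.62). Haptoglobin (Hp), which binds free hemoglobin, was higher in treated than in untreated apoE-deficient hearts by 2.35 ± 0.19 (adjusted p = 6.03e-05) and than in B6 hearts by 2.48 ± 0.19 (adjusted p = 4.83e-05). Fth1, the ferritin heavy chain, was higher in treated than in untreated apoE-deficient hearts by 0.24 ± 0.03 on its main probe set under quantile normalization, but lower by -0.63, -0.45 and -0.56 with the 3 other scalings and by -0.25 ± 0.04 on another probe set.

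Around the metallothioneins, 2 of 11 tested genes of zinc handling were higher in treated hearts against each other group, none was lower, and none passed between untreated apoE-deficient and B6 hearts (medians 0.20, -0.13 and 0.05). They were Mt3, the metallothionein best known from brain, at 1.41 ± 0.39 and 1.60 ± 0.39 (adjusted p = 0.0351 and 0.0246), and the zinc importer Slc39a10, at 0.35 ± 0.09 in both (adjusted p = 0.0313 and 0.0361). Mt3 had an SD of 0.65 between the treated arrays and its differences were 0.95 and 1.14 without treated replicate 1, where they did not pass. They did not pass either without untreated apoE-deficient replicate 1 (1.29) or replicate 2 (1.53) in the first comparison or without B6 replicate 2 (1.23) in the second. Slc39a10 lost its calls without either treated array (0.34 and 0.36), without untreated apoE-deficient replicate 2 (0.28) in the first comparison and without either B6 array in the second.

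Of 9 genes of NADPH oxidase and other sources of oxidants, 1 was higher and 2 lower in treated than in untreated apoE-deficient hearts, 3 were higher and 1 lower in untreated apoE-deficient than in B6 hearts, and 2 were higher and none lower in treated than in B6 hearts (medians -0.37, 0.29 and -0.02). Nox4, an oxidase that releases hydrogen peroxide, was higher in treated than in untreated apoE-deficient hearts by 1.86 ± 0.29 (adjusted p = 0.00235). It was dim, with mean log2 levels of 6.67 in treated, 4.81 in untreated apoE-deficient and 5.30 in B6 hearts. The brightness filter, applied to the mean over all arrays, lay at 4.99. Against B6 hearts its difference was 1.37 ± 0.29 (adjusted p = 0.0136), lost with any treated or B6 array left out (1.31 to 1.42). Cyba, the membrane subunit p22phox, was lower in treated than in untreated apoE-deficient hearts by -0.37 ± 0.06 (adjusted p = 0.00313). Cybb, the catalytic subunit of the phagocyte oxidase, was higher in treated than in B6 hearts by 0.76 ± 0.13 (adjusted p = 0.00401), and its 2 other probe sets did not pass. The macrophage marker sum was higher in treated than in B6 hearts too, with 7 of 10 tested markers higher and none lower, and its part was not tested.

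**Figure D4:**
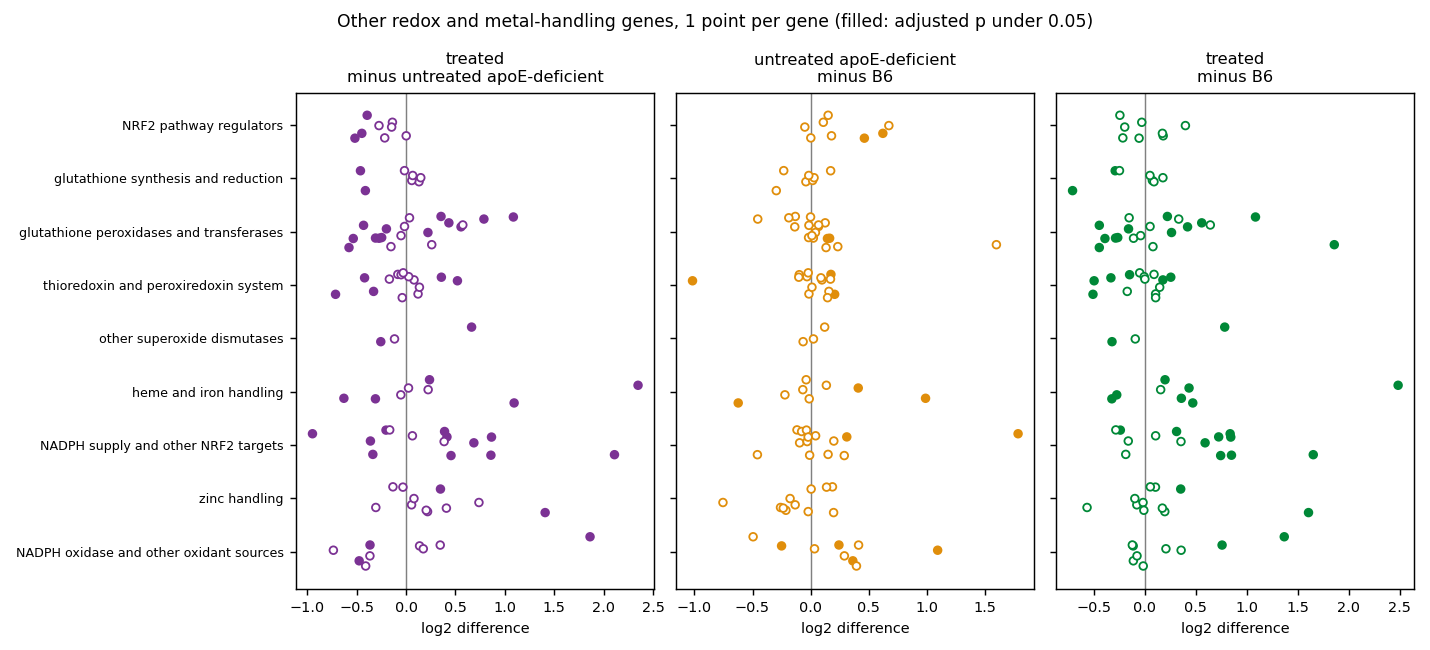
Log2 differences (horizontal axis) of the tested genes of the 9 lists, 1 point per gene by its main probe set, with a row per list and a panel per comparison. Filled points passed at an adjusted p under 0.05 and open points did not. In treated minus untreated apoE-deficient hearts the row of NADPH supply and other NRF2 targets has 7 filled points right of 0 and 4 left of it, and in untreated apoE-deficient minus B6 hearts it has 2, both right of 0.

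The genes most like a member in their pattern were those with the smallest root mean square difference of 6 log2 values after each gene was centred on its own mean. For Mt1, whose own values spread by 0.25 in that measure, these were Fam234b (0.043), Gpatch4 (0.045) and Lipt1 (0.047). For Mt2, with a spread of 0.46, they were Lonrf1 (0.078), Cd52 (0.083) and Gnal (0.087), and for Hmox1, with a spread of 0.42, Ankrd10 (0.019), Pdcl (0.084) and Fads2 (0.089). Cat, with a spread of 0.41, was most like Erbin (0.071), C1d (0.083) and Hpgd (0.088). Gclc was most like Otulin (0.028), Timp3 (0.033) and Rcan1 (0.041), and Sod2 like Chmp4b (0.016), Eif4g3 (0.021) and Kdelr2 (0.024). With 6 arrays, likeness of this size describes these arrays only.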

How the data were processed

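Hearts of 3 groups of 2 arrays were measured. The deposited table gives 1 linear intensity per probe set and array, and GCOS is named per the submitters' processing notes. Which version, background correction and target scaling it ran with is not given in the sources used here. The intensities deposited by the authors were not on a common scale across arrays.

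The 64 control probe sets were left out, and the linear signals of the other 45037 were quantile normalized (limma 3.58.1 in R 4.3.3), given a pseudocount of 11.1 (their 25th percentile) and taken to log2. The test covered the 27022 probe sets whose mean log2 value exceeded the 40th percentile (4.99). One limma model with an intensity trend covered the 6 arrays, with 3 residual and 5.97 prior degrees of freedom, and p-values were Benjamini-Hochberg adjusted over all tested probe sets. The small number of arrays limits the precision. GEO's platform annotation, possibly outdated, gave 1 symbol to 34945 probe sets, several to 932 and none to 9160, and 34741 symbols were looked up by gene number in a gene table of GRCm38.p6.

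The members and gene lists were chosen with earlier results of these data known. Every probe set of the 10 genes is described, then, per list and comparison, up to 4 passing genes with the smallest p, and every gene of a list of 5 or fewer. The text names fewer than this rule allows, chosen after values were seen, and adds Nfe2l2 and Keap1 for their role. Each member that passed in any comparison has its 3 nearest genes. Alternatives covered the scaling, pseudocount, brightness filter, model and each array left out.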

Additional observations from a re-analysis of the deposited data

How the results depend on the processing

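The counts of passing probe sets among the 10 genes changed with several choices. Without scaling, 20 probe sets and 10 genes passed in treated against untreated apoE-deficient hearts, 3 and 3 in untreated apoE-deficient against B6 hearts, and 17 probe sets in treated against B6 hearts, against 6 and 4, 6 and 5, and 8 as reported. Of all 27022 probe sets, 22755, 1548 and 18758 then passed. Without the intensity trend, 1 probe set and 1 gene passed in the first comparison and 0 in the other 2, against 1653, 10 and 626 of all probe sets (5355, 1909 and 4066 with it). In untreated apoE-deficient against B6 hearts, 3 genes passed with trimmed-mean scaling, with equal array medians and with no brightness filter, and 1 gene with the probe sets of a gene averaged. In treated against B6 hearts, 5 probe sets passed with no filter, and 3 genes with probe sets averaged. With 1 array left out, 4 to 7 probe sets and 3 to 5 genes passed in treated against untreated apoE-deficient hearts, 3 to 5 and 2 to 4 in untreated apoE-deficient against B6 hearts, and 4 to 7 and 3 to 5 in treated against B6 hearts.

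Scaling moved the median of all log2 differences to 0.18, 0.11 and 0.28 with hybridization controls, to 0.09, -0.08 and -0.00 with equal array medians and to 1.13, -0.32 and 0.81 with none. The share of calls that were higher was 50.5%, 44.8% and 49.6% as reported, 79.6%, 80.9% and 92.5% with hybridization controls, 64.7%, 25.7% and 45.8% with equal medians, and 99.9%, 4.72% and 99.7% with none. Differences that changed sign were Mt1 with probe sets averaged (0.11, -0.50 and -0.40) and, in treated against B6 hearts, with trimmed-mean scaling and equal array medians (-0.0012 and -0.0031), Sod2 in untreated apoE-deficient against B6 hearts with hybridization controls (0.091), Fth1 in treated against untreated apoE-deficient hearts (-0.63, -0.45 and -0.56 with the 3 other scalings and -0.00565 averaged), and, in treated against B6 hearts, Sod1 averaged (0.0083) and Nfe2l2 with hybridization controls (0.26). The cause was not tested.

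Same-numbered arrays shared only a number, with correlations of their deviations of -0.01, 0.02 and 0.03. With the replicate number as a block, 6, 5 and 8 member probe sets and 5, 4 and 7 genes passed. Nqo1 then passed in both comparisons with treated hearts (adjusted p = 0.0324 and 0.0312), while Gclc in untreated apoE-deficient against B6 hearts (0.0579) and the second Srxn1 probe set in both comparisons with treated hearts (0.0507 and 0.0539) did not. Of 570 recomputed member values, 469 kept direction and side of the threshold, and of 1155 of the wider lists 1036 did. The member values are of main probe sets and include differences that had not passed and stayed so. Their share therefore does not measure how firm the calls were.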
